A study of Mus musculus with 3 samples.

Results

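The genes described here are 35 genes of DNA replication and S phase. The rule took listed replication genes with a row in the table and used no measured value, which gave 35 of the table's 9781 gene rows. They were ordered by what their proteins do, which gives 9 genes of origin licensing and the helicase, 9 of the clamp, clamp loader, polymerases, ligase and single-strand binding, 4 of nucleotide supply and uracil removal, 4 of histone supply and chromatin, 5 of fork stability, degradation and repair, and 4 transcription factors and cyclins of the G1/S transition. Single cell RNA-seq had been done on mouse tissue labelled normal, with 1 library each from E18.5 male urogenital sinus (UGS, where prostate buds form in the embryo), prostate at P14 and prostate at P35. The study works with mice in which Cre under the *Osr1* promoter turns on a membrane GFP reporter, but the labels give neither strain nor genotype for these libraries, and how many animals were pooled in a library is not given in the sources used here. All cells sit in 1 table whose barcodes end in 1, 2 or 3, called barcode sets 1, 2 and 3. The labels hold no key from endings to tissues, so the sets stand side by side as separate libraries with no age attached, and ages were not compared. The study's text states a cell count for each age. That of the UGS library equals the count in the smallest set, the others differ from the counts in the larger sets, and groups were taken from the labels alone. With 1 library per group there is no replicate, no p-value was computed, and the 95% intervals given take in counting error alone.

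A cell copies its DNA once per division. In G1 the origin recognition complex, with *Orc1*, loads the MCM helicase onto origins. Cyclin E and E2F transcription factors then carry the cell into S phase, where MCM with GINS unwinds the DNA, primase and the polymerases copy it along the PCNA clamp, and enzymes of nucleotide and histone supply keep pace. mRNA of many of these genes is known to rise before and during S phase under E2F factors, so they are widely used as S phase markers. In the prostate, epithelial buds and ducts grow into a stroma of fibroblasts and smooth muscle.

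Since many of these genes are known E2F targets, promoter sequences of 5 members are shown. RefSeq promoter windows (GRCm38.p6, 250 bases before a gene's start to 50 after it) were found for 29 of the 35 members. E2F letters were searched on both strands as 4 runs of bases. The first was TTCCCGC and the second was TTGCCGC. The third searched was TTCGCGC, and the last of these was TTGGCGC, which can overlap CCAAT read on the other strand. They were in the windows of 17 of the 29 members and of 10.9% of all 27025 genes. CCAAT, the letters bound by NF-Y, was in 21 of the 29 members and in 41.1% of all genes. The windows of *Nasp*, *Slbp*, *Mcm2*, *Mcm10*, *Pcna*, *Rfc5*, *Tyms*, *Dut*, *Ung*, *Rad54l*, *E2f1* and *Ccne1* held none of the 4 E2F runs, which says only that these letters are not in these windows. The sequences were chosen after the values were seen. *Mcm5* and *Mcm6* stand for the helicase genes, *Rrm1* and *Dtl* for genes that departed from them, and *Slbp* for the members with most UMIs. Each runs 5′ to 3′ on the gene's strand and ends before the gene's span, with the E2F letters in capitals, where 2 matches on opposite strands can overlap.
Mcm5 (chr8:75109309-75109467, + strand): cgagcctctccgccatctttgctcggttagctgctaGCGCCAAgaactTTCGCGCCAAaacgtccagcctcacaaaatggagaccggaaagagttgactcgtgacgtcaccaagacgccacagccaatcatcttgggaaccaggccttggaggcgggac
Mcm6 (chr1:128359706-128359905, - strand): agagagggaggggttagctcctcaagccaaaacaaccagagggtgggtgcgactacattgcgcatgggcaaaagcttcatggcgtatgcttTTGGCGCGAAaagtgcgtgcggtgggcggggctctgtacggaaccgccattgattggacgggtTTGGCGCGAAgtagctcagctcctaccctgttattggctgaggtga
Rrm1 (chr7:102441495-102441694, + strand): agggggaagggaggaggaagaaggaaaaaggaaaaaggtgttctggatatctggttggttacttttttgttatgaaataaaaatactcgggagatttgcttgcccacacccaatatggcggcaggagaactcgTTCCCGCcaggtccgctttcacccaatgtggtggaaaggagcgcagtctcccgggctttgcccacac
Dtl (chr1:191575545-191575744, - strand): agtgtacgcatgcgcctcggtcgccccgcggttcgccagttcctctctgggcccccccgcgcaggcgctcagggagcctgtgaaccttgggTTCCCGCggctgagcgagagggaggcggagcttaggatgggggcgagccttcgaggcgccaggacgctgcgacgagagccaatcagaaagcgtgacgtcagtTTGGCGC
Slbp (chr5:33652575-33652774, - strand): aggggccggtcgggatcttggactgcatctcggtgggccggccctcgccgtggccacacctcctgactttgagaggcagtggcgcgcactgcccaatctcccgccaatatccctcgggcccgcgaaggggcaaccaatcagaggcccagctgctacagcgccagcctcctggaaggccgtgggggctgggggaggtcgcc

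Depth was counted in unique molecular identifiers (UMIs, barcodes that tag single captured mRNAs). The median cell had 19357 UMIs among the 766 cells of set 1, 1738 among the 5350 of set 2 and 1801 among the 8360 kept in set 3. Barcodes shared between sets, apart from the ending, numbered 1 for sets 1 and 2, 0 for sets 1 and 3, and 13 for sets 2 and 3. Cells were clustered with the members and the other genes of the cell cycle lists used here left out of the features. Cell cycle genes outside those lists were not left out. Of these, *Spc25* and *Tacc3* were among the 10 leading genes of the mitotic cluster described below. Of 14 clusters, 11 were named from markers. Epithelium-like cells (4 clusters) numbered 149, 1453 and 2787 in sets 1, 2 and 3, fibroblast-like cells (2 clusters) 345, 1592 and 2606, and smooth muscle-like cells (1 cluster) 67, 1592 and 1936. The epithelium-like class was made up differently in each set, with 1, 74, 40 and 34 cells of clusters 3, 4, 5 and 11 in set 1, 434, 418, 564 and 37 in set 2, and 1190, 961, 536 and 100 in set 3. Epithelial markers summed to 7503, 3630 and 4104 UMIs per 1000000 UMIs (CPM) in the epithelium-like cells, and to 33.0, 129.5 and 43.7 CPM in the fibroblast-like cells. Fibroblast markers stood at 164.9, 1569 and 895.6 CPM in the epithelium-like cells. In set 1 the smooth muscle-like cells had more UMIs of fibroblast markers (4705 CPM) than of smooth muscle markers (3719 CPM), so there the name does not hold by level. A cluster of 360 cells led by mitotic genes carried 9 fibroblast and 7 smooth muscle markers and none of the general epithelial markers, beside 1 luminal, 1 endothelial and 1 mesothelial marker. It stayed unnamed and is called the mitotic cluster below.

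Added over the 35 genes, the members took 1544 CPM (1527 to 1561) in set 1, 718.8 CPM (705.7 to 732.1) in set 2 and 733.3 CPM (723.2 to 743.5) in set 3. *Nasp*, a chaperone that holds histones H3 and H4, and *Slbp*, which binds the stem-loop of replication-dependent histone mRNA, had the most UMIs of the members. Together they made 25.0%, 31.9% and 37.8% of the members' UMIs in sets 1, 2 and 3, so a sum over the members is in good part a reading of these genes.

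In every set the mitotic cluster had the highest member sum, with 3567 CPM in set 1, 2081 CPM in set 2 and 2529 CPM in set 3. *Ccna2*, *Tpx2* and *Cenpf*, all of the mitosis list, led that cluster, so its level is a description. Fibroblast-like cells had 1461, 762.4 and 841.7 CPM, and epithelium-like cells had 917.3, 675.6 and 717.6 CPM. In set 1 epithelium-like cells were the lowest of the 7 named classes, below the 1461 to 2131 CPM of the others, with no overlap of intervals. The clusters of that class were unequal. Of the epithelium-like clusters in set 1, cluster 4 (74 cells) had 590.1 CPM (565.7 to 615.3), cluster 5 (40 cells) 1208 CPM (1157 to 1262) and cluster 11 (34 cells) 1309 CPM (1257 to 1363), the last overlapping fibroblast-like cluster 2 at 1361 CPM (1321 to 1403). Cells named smooth muscle-like stood at 1899 CPM in set 1, above the fibroblast-like cells, but there the name does not hold by level. In sets 2 and 3 smooth muscle-like cells lay below the fibroblast-like cells, at 562.3 and 625.4 CPM. Endothelium-like cells had 1527, 789.5 and 747.9 CPM, leukocyte-like cells 1870, 670.9 and 648.6 CPM, and glia-like cells 2131, 595.0 and 669.4 CPM. In sets 2 and 3 the intervals of leukocyte-like and glia-like cells overlapped each other and that of the epithelium-like cells. Neuron-like cells had 1660 CPM in set 1, 516.6 CPM in set 2 and 367.8 CPM in set 3, the values of sets 2 and 3 from 15 and 19 cells.

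**Figure D1:**
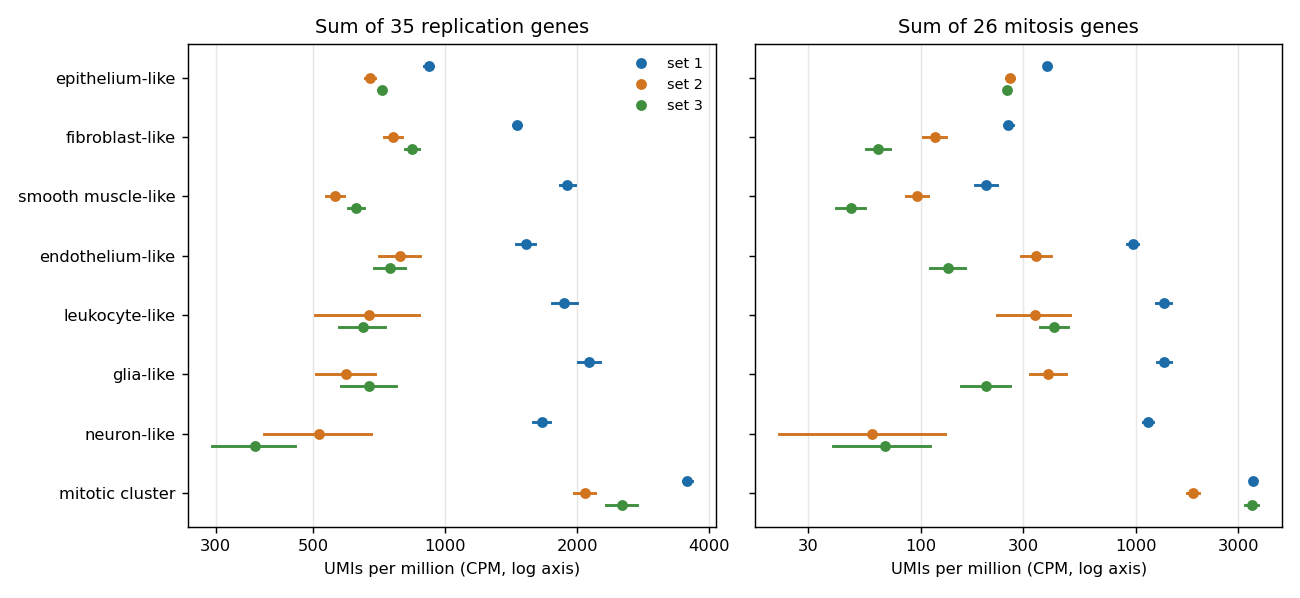
Summed UMIs per 1000000 (CPM, log axis) of the 35 replication genes (left) and of 26 mitosis genes (right) in each named class and the mitotic cluster, with points for the sum in a barcode set and lines for the 95% counting interval. Epithelium-like cells lay below fibroblast-like cells for replication genes (917.3 against 1461 CPM in set 1) in all 3 sets, and above them for mitosis genes (388.6 against 255.9 CPM in set 1) with the mitotic cluster left out but not with it counted as fibroblast-like (388.6 against 1043 CPM).

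Epithelium-like over fibroblast-like cells, the log2 ratio of the member sum was -0.67 (-0.72 to -0.63) in set 1, -0.17 (-0.25 to -0.10) in set 2 and -0.23 (-0.29 to -0.17) in set 3. A sum of 26 mitosis genes measured in the same cells, which leave out the mitotic cluster, went the other way, with log2 ratios of 0.60, 1.17 and 1.98. *Nasp* and *Slbp* weighed on the member sum. Without them, an alternative added after the values were seen, the log2 ratio was 0.33 (0.23 to 0.44) in set 2 and 0.48 (0.40 to 0.57) in set 3, and stayed at -0.64 (-0.69 to -0.58) in set 1. Without them but with the mitotic cluster counted as fibroblast-like, it was -1.14 (-1.19 to -1.09), -0.34 (-0.42 to -0.26) and 0.14 (0.07 to 0.22), so that set 2 stayed below 0. These are rates per UMI, and the median epithelium-like cell had 42599, 4149 and 3564 UMIs against 15062, 1229 and 1319.5 in fibroblast-like cells. Per cell the members had 44.8, 3.91 and 4.396 UMIs in epithelium-like and 26.7, 1.14 and 1.197 in fibroblast-like cells, the opposite order.

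Where the mitotic cluster is placed bears on each gene below, since it had the highest member sum. It stood outside the fibroblast-like and smooth muscle-like classes although it carried 9 fibroblast and 7 smooth muscle markers. No version counted it as smooth muscle-like. Values below leave that cluster out. Those with it counted as fibroblast-like, an alternative added after the values were seen, are given where they move a member's interval onto 0 or off it, and for every member in the plot of ratios by role. With it, the log2 ratios of the member sum were -1.10, -0.59 and -0.39, and those of the mitosis sum -1.42, -0.80 and -0.07.

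Gene by gene, a member was called higher or lower at a ratio of at least 2-fold among genes with at least 20 UMIs in both classes together. In set 1, 1 of 35 members was higher in epithelium-like cells, where 16.7% of all genes were, and 10 were lower, where 23.7% were. In set 2, 6 of 32 were higher (17.9% of all genes) and 3 lower (18.6%). In set 3, 15 of 34 were higher (23.4%) and 5 lower (21.0%). Epithelium-like cells of set 3 held 17071905 UMIs against 3706905 in fibroblast-like cells. A sparse gene could thus pass the minimum through epithelium-like cells alone, as *E2f8* did with 1 UMI in fibroblast-like cells. The shares of all genes rest on the same minimum. The median log2 ratio of the members was -0.82, 0.55 and 0.94 in sets 1, 2 and 3, beside -0.12, -0.01 and 0.20 for all genes. With the mitotic cluster in the fibroblast-like class the counts were 0 higher (15.9% of all genes) and 25 lower (25.3%) of 35 in set 1, 2 higher (15.5%) and 5 lower (19.7%) of 34 in set 2, and 9 higher (21.4%) and 5 lower (21.6%) of 34 in set 3. The member median was then -1.34 in set 1 and 0.34 in set 3, on the same side of 0 as before, and -0.33 in set 2, on the other side. After each cell was thinned to 900 UMIs, 0 members were higher (10.1% of all genes) and 4 lower (24.4%) of 9 in set 1, 3 higher (15.2%) and 3 lower (19.1%) of 20 in set 2, and 10 higher (21.3%) and 5 lower (20.6%) of 26 in set 3. With each cell classed on its own, 0 were higher (16.5%) and 18 lower (23.3%) of 35 in set 1, 1 higher (15.9%) and 3 lower (19.0%) of 33 in set 2, and 9 higher (19.4%) and 4 lower (19.6%) of 34 in set 3.

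**Figure D2:**
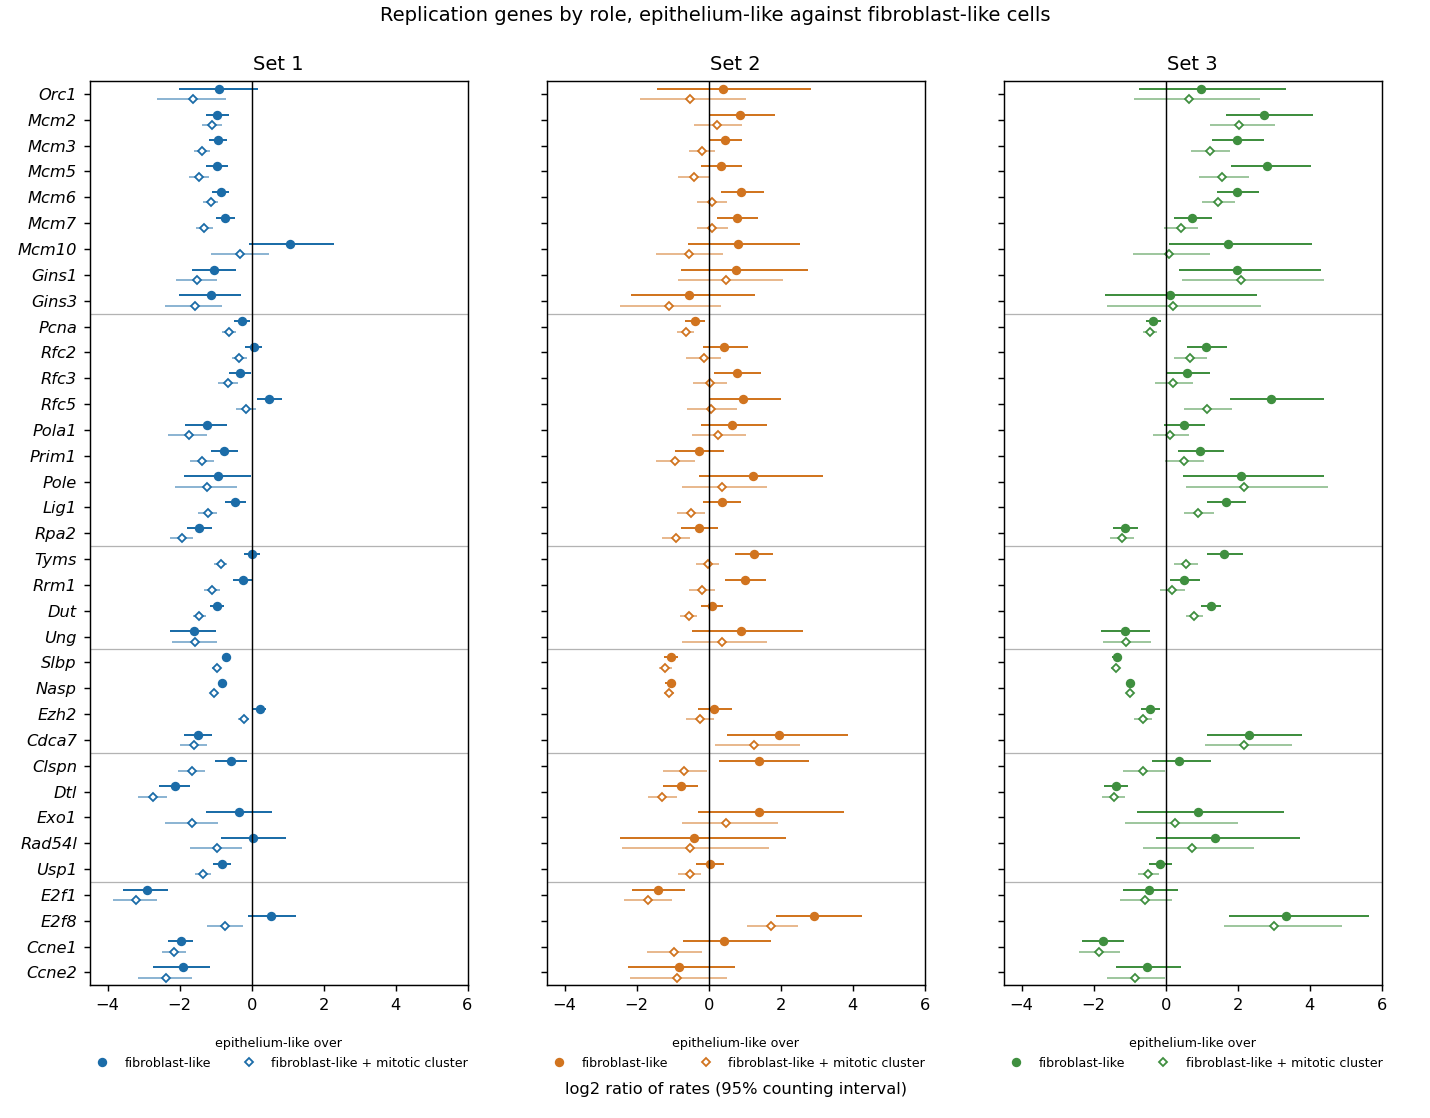
Log2 ratio of each member's rate in epithelium-like over fibroblast-like cells, in 3 panels for the barcode sets, with grey lines between roles and horizontal lines for the 95% counting interval. Filled circles leave the mitotic cluster out and open diamonds count it as fibroblast-like, and the 5 MCM genes *Mcm2*, *Mcm3*, *Mcm5*, *Mcm6* and *Mcm7* lie left of 0 in set 1 and right of 0 in set 3 for both.

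Over the classes as a whole, the MCM genes lay on opposite sides of 0 in sets 1 and 3. *Mcm2*, *Mcm3*, *Mcm5*, *Mcm6* and *Mcm7* code for subunits of the ring that unwinds DNA at the fork. Summed, these 5 genes stood at 130.7 CPM in epithelium-like against 240.7 CPM in fibroblast-like cells of set 1, at 102.1 against 65.6 CPM in set 2 and at 91.9 against 25.6 CPM in set 3. That is a log2 ratio of -0.88 (-1.0 to -0.76) in set 1, 0.64 (0.39 to 0.89) in set 2 and 1.84 (1.54 to 2.16) in set 3. With the mitotic cluster counted as fibroblast-like they were -1.28 (-1.39 to -1.17), -0.08 (-0.27 to 0.11) and 1.25 (1.01 to 1.5), so set 1 and set 3 lay on opposite sides of 0 either way and set 2 was not told apart from 0. Between the sets it was the fibroblast-like level that spanned the wider range, from 25.6 to 240.7 CPM, beside 91.9 to 130.7 CPM in epithelium-like cells. In set 1 the epithelium-like clusters were unequal, with 67.4 CPM in cluster 4, 164.1 CPM in cluster 5 and 230.1 CPM in cluster 11, and cluster 11 lay above the 182.5 CPM of fibroblast-like cluster 2 and below the 298.2 CPM of fibroblast-like cluster 1. The part of the differing cluster makeup in the contrast between sets was not tested.

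All 5 genes had lower epithelium-like rates in set 1, at log2 ratios from -0.96 to -0.73. *Mcm6* had 32.9 CPM against 59.6 in set 1, 22.9 against 12.2 in set 2 and 29.8 against 7.55 in set 3, with log2 ratios of -0.86, 0.91 and 1.98. *Mcm5* had 19.8 against 38.6, 18.2 against 14.3 and 15.1 against 2.16 CPM, and *Mcm3* had 30.1 against 57.7, 27.8 against 20.2 and 19.0 against 4.86 CPM. In each of these 3 genes, of the 6 values, the fibroblast-like one of set 1 was the highest and that of set 3 the lowest. *Mcm2* gave log2 ratios of -0.95, 0.87 and 2.74, and *Mcm7* of -0.73, 0.78 and 0.74. With the mitotic cluster the interval of *Mcm7* in set 3 (-0.04 to 0.91) included 0, while those of the other 4 genes stayed above 0. In set 2, *Mcm2* (0.24), *Mcm3* (-0.19), *Mcm6* (0.08) and *Mcm7* (0.10) were then not told apart from 0.

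The other licensing and helicase genes were sparse. *Gins1* and *Gins3*, subunits of the GINS complex that joins MCM in the active helicase, stood in set 1 at 4.95 against 10.2 CPM and 2.61 against 5.72 CPM, both about a log2 unit lower in epithelium-like cells (-1.04 and -1.13). *Mcm10*, which helps to activate the helicase, was the member that was 2-fold higher in set 1, at 3.30 against 1.59 CPM, and its interval of -0.06 to 2.28 included 0. In set 3 its ratio was 1.74 (0.10 to 4.06), from 3 UMIs in fibroblast-like cells. Counting the mitotic cluster in, *Mcm10* had -0.31 (-1.13 to 0.49) in set 1 and 0.09 (-0.92 to 1.24) in set 3, neither told apart from 0. *Orc1* stayed at or under 3.34 CPM in both classes of every set, and its ratios were not told apart from 0, while with the mitotic cluster that of set 1 was -1.63 (-2.64 to -0.72).

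At the fork, *Pcna*, the sliding clamp, differed little and in the same direction everywhere. It had 46.1 against 55.4 CPM, 48.1 against 62.2 CPM and 49.6 against 62.9 CPM, with log2 ratios of -0.27, -0.37 and -0.34, and all 3 intervals lay below 0 in both versions. *Rpa2*, a subunit of the RPA complex that coats single-stranded DNA, stood below the fibroblast-like level in set 1 (13.3 against 36.4 CPM) and set 3 (12.95 against 28.1 CPM), with log2 ratios of -1.45 (-1.80 to -1.10) and -1.12 (-1.46 to -0.77). In set 2 its ratio of -0.27 was not told apart from 0, and it was -0.91 (-1.31 to -0.51) with the mitotic cluster. *Rpa2* thus went with *Pcna* in direction and against the helicase genes in set 3.

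Of the clamp loader genes, *Rfc5* went the other way. It had 26.1 against 18.6 CPM, 8.91 against 4.63 CPM and 12.4 against 1.62 CPM, with log2 ratios of 0.49, 0.95 and 2.93 and no interval reaching 0. With the mitotic cluster in the fibroblast-like class the ratio of *Rfc5* was -0.16 in set 1, 0.07 in set 2 and 1.15 in set 3, and only the last was told apart from 0. *Rfc2* was level in set 1 (44.3 against 42.4 CPM) and higher in set 3 (19.4 against 8.90 CPM). With the cluster counted in, *Rfc2* was lower in set 1 (-0.34). *Rfc3* went from -0.33 in set 1 to 0.78 and 0.60 in sets 2 and 3, and to 0.04 and 0.21 with the cluster counted in, neither told apart from 0.

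*Lig1*, the ligase that joins Okazaki fragments, had 24.4 against 33.2 CPM in set 1, 19.96 against 15.6 CPM in set 2 and 27.7 against 8.63 CPM in set 3, with log2 ratios of -0.45, 0.36 and 1.68. *Prim1*, the primase subunit that starts each new strand, gave -0.76, -0.28 and 0.96. Counting the mitotic cluster in, *Lig1* was lower in set 2 too (-0.49), *Prim1* was lower in set 2 (-0.93), and its set 3 ratio of 0.50 was not told apart from 0. *Pola1*, the catalytic subunit of polymerase alpha, had log2 ratios of -1.25, 0.65 and 0.50, of which only that of set 1 was told apart from 0. *Pole*, the catalytic subunit of the leading strand polymerase, was at or under 4.45 CPM in both classes throughout.

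Summed, the 4 genes of nucleotide supply and uracil removal were again lower in epithelium-like cells of set 1 (-0.53) and higher in those of set 3 (1.01). *Tyms*, thymidylate synthase, had 51.9 against 52.0 CPM in set 1, 35.1 against 14.7 CPM in set 2 and 31.6 against 10.2 CPM in set 3. Its log2 ratios were 0.00, 1.25 and 1.63, and -0.86, -0.03 and 0.55 with the mitotic cluster. *Dut*, which clears dUTP, had 49.0 against 94.8 CPM, 53.6 against 50.04 CPM and 70.1 against 29.4 CPM, with log2 ratios of -0.95, 0.10 and 1.25. *Rrm1*, the large subunit of ribonucleotide reductase, had ratios of -0.25, 1.00 and 0.52. Counting the mitotic cluster in, *Rrm1* was lower in set 1 (-1.10) and not told apart from 0 in sets 2 and 3 (-0.19 and 0.18), and *Dut* was lower in set 2 (-0.56). *Ung*, the glycosylase that removes uracil from DNA, had the lower epithelium-like rate in sets 1 and 3, at 4.13 against 12.6 CPM and 3.57 against 7.82 CPM, with log2 ratios of -1.60 and -1.13. In set 2 it had 3.92 against 2.10 CPM, and the ratio of 0.90 (-0.47 to 2.61) was not told apart from 0.

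*Nasp* and *Slbp* were lower in epithelium-like cells of all 3 sets in both versions. *Nasp* had 138.2 against 242.9 CPM, 111.2 against 231.7 CPM and 144.7 against 285.1 CPM, with log2 ratios of -0.81, -1.06 and -0.98. *Slbp* had 120.4 against 194.9 CPM, 64.9 against 134.1 CPM and 80.2 against 203.9 CPM, with log2 ratios of -0.70, -1.05 and -1.35. *Ezh2*, the methyltransferase that marks histone H3 for silencing, gave 0.22, 0.16 and -0.43, and -0.22, -0.24 and -0.63 with the mitotic cluster. *Cdca7*, a partner of the chromatin remodeller HELLS, crossed over with 10.6 against 29.6 CPM in set 1 and 8.03 against 1.62 CPM in set 3, log2 ratios of -1.48 and 2.31, and it kept its side in all 3 sets with the mitotic cluster (-1.60, 1.27 and 2.17).

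Among the genes that guard the fork, *Dtl*, which directs the destruction of licensing factors in S phase, had the lower rate in epithelium-like cells in all 3 sets and both versions. It had 7.84 against 34.2 CPM, 13.2 against 22.7 CPM and 12.5 against 32.6 CPM. On the log2 scale this was -2.12 (-2.57 to -1.70) in set 1, -0.78 (-1.27 to -0.29) in set 2 and -1.38 (-1.71 to -1.05) in set 3. *Clspn*, the adaptor of the checkpoint kinase Chk1, passed from -0.58 in set 1 to 1.41 in set 2 and 0.38 in set 3. Counting the mitotic cluster as fibroblast-like made it lower in all 3 sets, at -1.67, -0.68 and -0.62. *Usp1*, a deubiquitinase of PCNA, was lower in set 1 (31.8 against 56.2 CPM) and not told apart from 0 in sets 2 and 3 (0.04 and -0.16), where it was lower with the mitotic cluster (-0.53 and -0.48). The exonuclease gene *Exo1* and the recombination gene *Rad54l* stayed at or under 3.65 CPM, and no ratio of theirs was told apart from 0. With the mitotic cluster they were lower in set 1, at -1.65 (-2.42 to -0.93) and -0.97 (-1.71 to -0.27).

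Of the E2F genes, *E2f1* and *E2f8* lay on opposite sides of 0 beyond counting error in set 2. *E2f1*, an activator of S phase genes, had 3.58 against 27.0 CPM in set 1, 4.63 against 12.2 CPM in set 2 and 3.93 against 5.40 CPM in set 3. The log2 ratio was -2.92 (-3.57 to -2.32) in set 1, -1.40 (-2.13 to -0.65) in set 2 and -0.46 (-1.2 to 0.34) in set 3, where it was not told apart from 0. *E2f8*, an atypical family member that represses E2F targets, had 7.43 against 5.08 CPM, 22.5 against 2.94 CPM and 8.201 against 0.2698 CPM, the last value from 1 UMI in the fibroblast-like cells. Its log2 ratios were 0.55 (-0.11 to 1.23) in set 1 and 2.93 (1.86 to 4.27) in set 2, and in set 3, with the fibroblast-like sum set to 3 UMIs, 3.34 (1.76 to 5.64). Counting the mitotic cluster in, *E2f8* was lower in set 1 (-0.73) and higher in sets 2 and 3 (1.73 and 3.01). *E2f8* is also the member with the largest ratio in set 2 in the version without that cluster.

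*Ccne1*, cyclin E1, the partner of CDK2 at S phase entry, had 12.8 against 50.04 CPM in set 1 and 3.46 against 11.6 CPM in set 3, log2 ratios of -1.97 and -1.75, and 4.52 against 3.36 CPM in set 2, where the ratio of 0.42 was not told apart from 0 and was -0.96 with the mitotic cluster. *Ccne2*, cyclin E2, was lower in set 1 (2.61 against 9.85 CPM) and at or under 4.05 CPM in both classes of sets 2 and 3. Its set 3 ratio was -0.53 (-1.39 to 0.42), and -0.85 (-1.63 to -0.02) with the mitotic cluster. In smooth muscle-like cells *Ccne1* stood at 77.45, 6.62 and 24.0 CPM, above the fibroblast-like cells by log2 ratios of 0.63, 0.98 and 1.05, of which that of set 2 was not told apart from 0. In set 1 that class name does not hold by level.

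Fewer members differed 2-fold between smooth muscle-like and fibroblast-like cells, and fewer could be tested in sets 2 and 3. The mitotic cluster is in neither class here, though it carried markers of both. In set 1 the name smooth muscle-like does not hold by level, as given above. At least 2-fold, 3 of 34 members were higher and 0 lower in smooth muscle-like cells of set 1, where 4.23% and 11.7% of all genes were. In set 2, 0 of 24 were higher and 2 lower (9.68% and 9.99% of all genes), and in set 3, 3 were higher and 4 lower of 24 (12.7% and 15.0%). *Mcm3* had 120.9 CPM in smooth muscle-like against 57.7 CPM in fibroblast-like cells of set 1, and 5.63 against 20.2 CPM in set 2. *Ung* had 35.5 against 12.6 CPM in set 1.

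To ask whether the members mark dividing cells in these libraries, each cell was thinned at random to 900 UMIs, so that every cell had the same depth, which left out 1042 shallower cells. UMIs of at least 2 of the 26 mitosis genes were then found in 92, 191 and 151 cells of sets 1, 2 and 3, and no such UMI in 597, 4376 and 7116 cells. At least 2-fold, 12 of 16 members that could be tested were higher in the mitotic cells of set 1, where 6.08% of all genes were. In set 2, 8 of 10 were (5.31%), and in set 3, 5 of 7 (6.83%). The member medians were log2 ratios of 1.58, 1.97 and 1.41 and those of all genes -0.04, -0.02 and 0.02. A gene was tested here with at least 20 UMIs and at least 3 UMIs awaited in the mitotic cells at equal rates, a filter changed after its result was seen. Under the filter first used, 13 of 19, 22 of 25 and 23 of 27 members were higher, where 7.26%, 23.1% and 40.5% of all genes were.

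*Nasp* was tested in all 3 sets and was 2-fold higher in none. It had 289.9 CPM in mitotic against 202.9 CPM in other cells of set 1, 221.1 against 156.9 CPM in set 2 and 235.5 against 211.3 CPM in set 3, and no interval of its log2 ratio (0.51, 0.49 and 0.16) excluded 0. *Slbp* gave 1.03, 0.36 and 0.93. *Dut* had 277.8 against 63.3 CPM, 151.3 against 42.9 CPM and 206.0 against 33.6 CPM, with log2 ratios of 2.13, 1.82 and 2.62. *Usp1* gave 1.53, 1.88 and 2.78, and the clamp *Pcna* 1.30, 1.48 and 1.41. *Tyms* (2.48 and 2.44) and *Rrm1* (2.21 and 3.11) could be tested in sets 1 and 2 but not in set 3, and *Mcm3* (1.74) in set 1 alone. Of the tested members, *Mcm6*, *Ezh2* and *Ccne1* were, beside *Nasp*, not 2-fold higher in set 1.

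**Figure D3:**
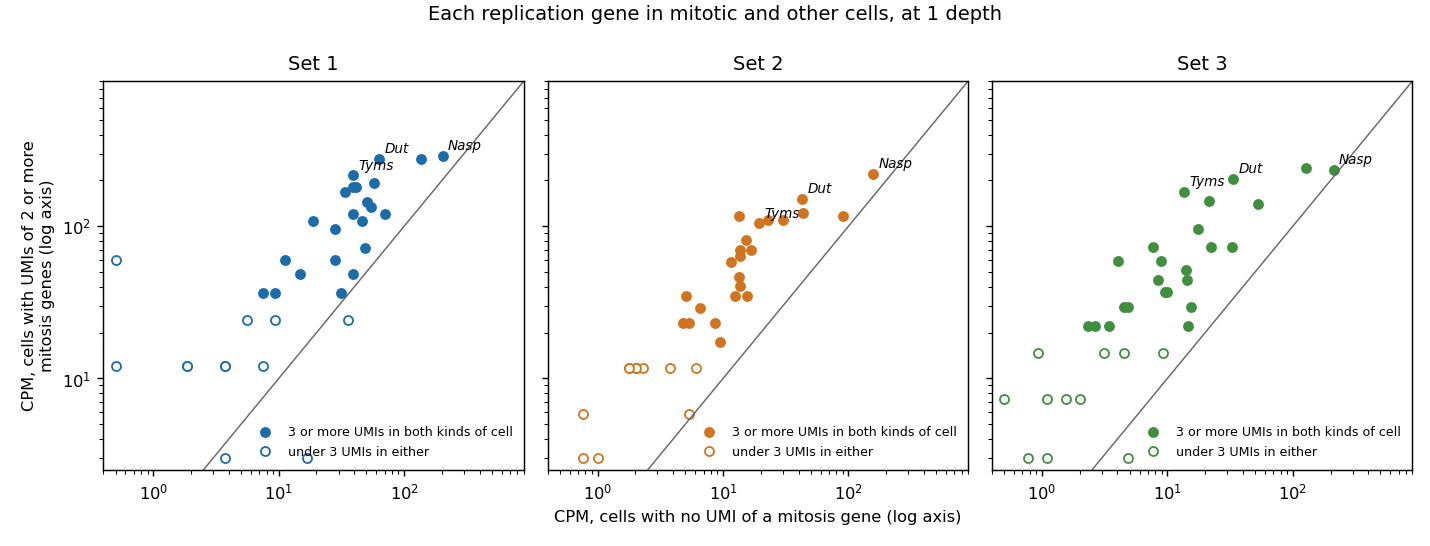
Each member's rate (CPM, log axes) in cells with UMIs of at least 2 mitosis genes against cells with none, all thinned to 900 UMIs, in 3 panels for the barcode sets. Filled points had at least 3 UMIs in both kinds of cell, open points fewer (the lowest drawn at the axis limit), a condition other than that of the test, the line marks equal rates, and *Nasp* lies near it (235.5 against 211.3 CPM in set 3) while *Dut* lies above (206.0 against 33.6 CPM).

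The same thinned cells gave the share of cells with UMIs of at least 2 different members. It was 28.5% (25.3 to 31.8) in set 1, 12.6% (11.7 to 13.5) in set 2 and 12.7% (11.9 to 13.4) in set 3, and 94.5%, 37.0% and 37.7% before thinning. In epithelium-like cells it was 16.9%, 11.2% and 11.8%, and in fibroblast-like cells 23.0%, 13.6% and 14.9%. These intervals overlapped in sets 1 and 2 (11.2 to 23.9 against 18.7 to 27.9 in set 1) and not in set 3 (10.6 to 13.0 against 13.5 to 16.5). In the mitotic cluster it was 72.3%, 52.1% and 51.9%. No class lacks these genes by its nature, so none gives the share that RNA free in the droplets would give.

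**Figure D4:**
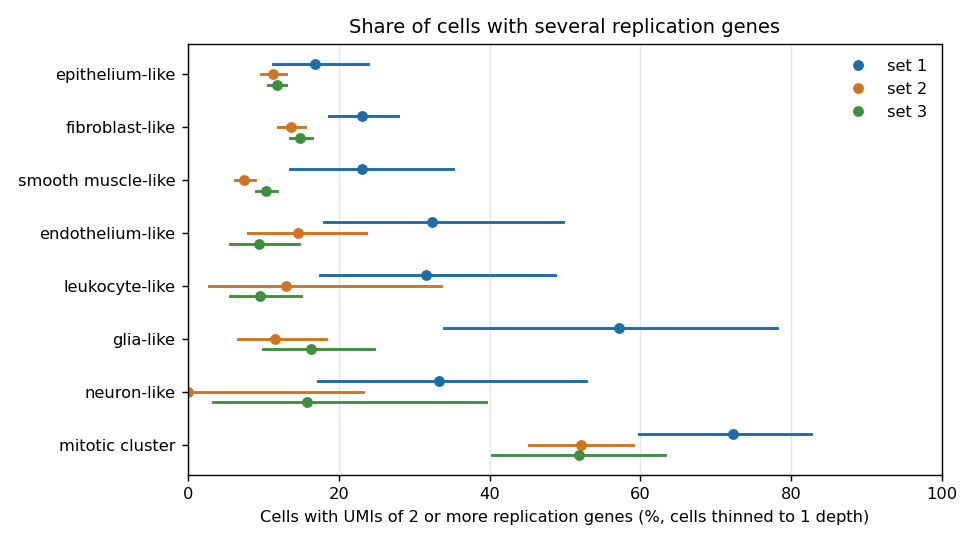
Percent of cells with UMIs of at least 2 of the 35 replication genes after thinning to 900 UMIs, by class and barcode set, with exact 95% binomial intervals. The mitotic cluster lies at 51.9 to 72.3%, above the epithelium-like (11.2 to 16.9%) and fibroblast-like cells (13.6 to 23.0%) of every set.

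A UMI of a mitosis gene was found in 42.1% (35.5 to 49.0) of set 1 cells with at least 2 members, in 14.9% with 1 member and in 11.3% (7.79 to 15.6) with none. The same shares were 30.6%, 12.4% and 8.85% in set 2 and 14.9%, 7.71% and 5.13% in set 3. Within epithelium-like cells of set 3 they were 22.3% with at least 2 members and 5.14% with none, with no overlap of intervals. Within fibroblast-like cells of set 3 they were 5.12% (3.01 to 8.07) and 4.47% (3.32 to 5.89). That class lacks the mitotic cluster, which carried fibroblast markers and is led by mitosis genes, so cells with both kinds of UMI had been taken out of it. With the cluster counted in, an alternative added after the values were seen, the shares were 14.5% (11.1 to 18.46) and 5.78% (4.47 to 7.34).

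Inside the epithelium-like class, 4 clusters could be read apart. Clusters 3 and 5 carried 8 basal markers each, with 2 and 4 luminal ones and 1 urothelium marker each. Clusters 4 and 11 carried 5 luminal, 5 basal and 2 urothelium markers each. The luminal and urothelium counts are all that have a row, while 9 basal markers have one. The urothelium gene *Upk1a* was among the leading genes of cluster 11. The clusters are called by number. The 5 MCM genes summed to 61.2 CPM in set 2 and 50.7 CPM in set 3 in cluster 3. In sets 1, 2 and 3 they summed to 164.1, 114.9 and 102.4 CPM in cluster 5, to 67.4, 97.8 and 100.6 CPM in cluster 4, and to 230.1, 116.6 and 85.3 CPM in cluster 11. Cluster 4 was thus the lowest of these 3 in set 1, and in sets 2 and 3 cluster 3 lay below the others. *E2f8* had 11.1, 30.7 and 17.3 CPM in cluster 5 and 3.22, 12.4 and 6.05 CPM in cluster 4.

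In set 3 *Rrm1* stood above every other cluster in an unnamed cluster of 169 cells that carried 6 pericyte, 7 smooth muscle and 5 fibroblast markers. It had 229.8 CPM (168.8 to 305.5) there in set 3, from 47 UMIs in 27 of 130 cells with at most 5 UMIs in any cell. In the mitotic cluster of the same set *Rrm1* had 91.1 CPM (56.4 to 139.2), and in the 11 named clusters 8.44 to 34.1 CPM. The 5 MCM genes together had 1 UMI in those 130 cells. In the same cells the mitosis genes summed to 576.9 CPM (477.5 to 690.8). Leukocyte-like cells, the highest named class of set 3, had 418.7 CPM (358.6 to 485.9), and these intervals overlapped. The cluster had 95.4 CPM (60.5 to 143.1) of *Rrm1* in 10 cells of set 1, below the mitotic cluster's 169.5 CPM, and 109.0 CPM (35.4 to 254.4) from 5 UMIs in 29 cells of set 2, where that interval took in the 98.9 CPM of the mitotic cluster. This pattern was picked out after the values were seen.

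The other genes of the pathway are given by list, with the mitotic cluster left out. Their counts stand beside the shares of all genes tested, which were 16.7% higher and 23.7% lower in set 1, 17.9% and 18.6% in set 2, and 23.4% and 21.0% in set 3. Of 23 other replication genes with a row, 0 were higher and 1 lower at least 2-fold in epithelium-like cells of set 1, 5 higher and 0 lower of 22 tested in set 2, and 4 higher and 1 lower of 23 in set 3, with medians of -0.17, 0.39 and 0.39. *Rnaseh2a*, the catalytic subunit of the nuclease that removes RNA from DNA, had intervals above 0 in all 3 sets, at 0.95, 1.52 and 0.91. *Cdc7*, the kinase that fires licensed origins, was lower in set 1 (-1.36). Of 17 G1/S control genes, 2 were higher and 7 lower in set 1, 3 and 2 of 14 in set 2, and 3 and 3 of 15 in set 3. The cyclin D genes *Ccnd1* and *Ccnd2* were both lower in epithelium-like cells of set 1 and went opposite ways in set 3. *Ccnd1* had 32.3 against 67.8 CPM in set 1, 514.7 against 54.3 CPM in set 2 and 223.8 against 23.5 CPM in set 3. *Ccnd2* had 219.0 against 528.2 CPM, 473.4 against 520.6 CPM and 100.5 against 398.4 CPM. *Cdkn1c*, an inhibitor of cyclin-dependent kinases, was lower in epithelium-like cells of all 3 sets, at -1.93, -1.08 and -1.71. Of 9 homologous repair genes with a row, 0 of 6 tested passed 2-fold in set 1, 2 were higher and 1 lower of 5 in set 2, and 5 higher and 1 lower of 6 in set 3. Of 26 mitosis genes, 4 were higher and 0 lower of 26 in set 1, 14 and 0 of 22 in set 2, and 18 and 1 of 25 in set 3. These last counts leave out of the stroma a cluster led by genes of that very list, and with it the summed ratio was the one given above, -1.42, -0.80 and -0.07.

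Outside all lists, genes were ranked by their rate in thinned cells with at least 2 members over that in cells with none. The lowest ratio of the 3 sets gave the rank. The 3591 genes ranked had at least 20 UMIs in the first kind of cell over the sets, and at least 3 in each. They were thus chosen through the cells where they are high, so the ranking is a description. The first 10 were *Cdk1*, *Spc25*, *Smc2*, *Tacc3*, *Ncapd2*, *Syce2*, *Ncapg*, *Shcbp1*, *Smc4* and *Stmn1*. In set 1 *Ncapd2*, *Syce2*, *Ncapg* and *Shcbp1* had at most 1 UMI in cells with none. Their intervals there included 0 (-0.88 to 3.98 for *Ncapg*). *Cdk1*, the kinase that drives entry into mitosis, had 159.5 CPM in cells with at least 2 members against 24.2 CPM in cells with none in set 1, 86.4 against 11.1 CPM in set 2 and 47.0 against 6.54 CPM in set 3. *Smc2*, *Smc4*, *Ncapd2* and *Ncapg* code for subunits of condensin, which compacts chromosomes. *Smc2* had log2 ratios of 1.98, 2.40 and 2.59.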

How the data were processed

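Mouse UGS and prostate cells were profiled by droplet single cell RNA-seq, 1 library per group. The authors counted UMIs with Cell Ranger (version 3.1.0 per the labels) on mm10 with added transgene sequences, and filtered out droplets judged empty, multiplets and cells with much mitochondrial RNA. Labels and methods name different kit versions. The deposited values are natural log values, ln(1 + 10000 × UMIs / cell total), from 0 to 7.94. All 11120281 values above 0 came back as whole UMIs (tolerance 0.05, largest distance 9.4e-07). The table was held in part, with 9781 rows carrying 49.4 to 52.7% of a set's UMIs, and cell totals cover all genes. Cells under 200 genes were left out (97 of set 3).

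Clustering followed Seurat 5.3.0 (R 4.3.3), with 20 integration dimensions, 2000 features less the cell cycle lists (1960), 30 components, resolution 0.5 and no regression. A cluster carried a marker at 10% of cells and 2 times the median cluster's rate. It was named where 1 class had at least 3 carried markers, 2 times those of any other class, and among the 10 leading genes the markers of no other class outnumbered its own. This rule replaced an earlier one after the clusters and the members' rates in them were seen. Scrublet in scanpy 1.11.5 put 3, 0 and 0 cells over its automatic threshold, while the doublet shares assumed were 0.61%, 4.28% and 6.69%. None were removed in the main version, and removal by rank was an alternative. An unnamed cluster of 331 cells carried 9 epithelial, 7 smooth muscle and 5 fibroblast markers. Whether doublets remain was not tested.

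Rates are summed UMIs per 1000000 with exact Poisson intervals, shares have Clopper-Pearson intervals, and log2 ratios have intervals from the binomial split, with sums under 3 UMIs set to 3. All cover counting error only. Depth ran from 15929745 to 27387140 UMIs per set. Tested on simulated data with 200 genes changed 4 times, the ratios recovered 98.7%, 97.1% and 98.0% of the changed genes with at least 20 UMIs in sets 1, 2 and 3, over 9781 genes. The genes and lists were chosen with earlier results of these data known. The text names all members, genes of the other lists among the 4 with most UMIs or the largest ratios in their list, and the 10 genes ranked outside the lists.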

Additional observations from a re-analysis of the deposited data

Results flagged for a closer look

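For 14 members the log2 ratio of epithelium-like over fibroblast-like cells lay below 0 in one barcode set and above 0 in another, each beyond counting error. The difference between sets was not tested, since each set is 1 library. The share of all genes that change side in this way was not computed, so the count cannot be read as particular to the members. In sets 1, 2 and 3 the values were -0.95, 0.87 and 2.74 for *Mcm2*, -0.94, 0.46 and 1.97 for *Mcm3*, -0.86, 0.91 and 1.98 for *Mcm6*, -0.73, 0.78 and 0.74 for *Mcm7*, -0.33, 0.78 and 0.60 for *Rfc3*, and -1.48, 1.96 and 2.31 for *Cdca7*. In sets 1 and 3 they were -0.96 and 2.81 for *Mcm5*, -1.04 and 1.99 for *Gins1*, -0.76 and 0.96 for *Prim1*, -0.93 and 2.09 for *Pole*, -0.45 and 1.68 for *Lig1*, -0.95 and 1.25 for *Dut*, and 0.22 and -0.43 for *Ezh2*. For *Clspn* they were -0.58 in set 1 and 1.41 in set 2.

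With the mitotic cluster counted as fibroblast-like, *Mcm2*, *Mcm3*, *Mcm5*, *Mcm6*, *Gins1*, *Pole*, *Lig1*, *Dut* and *Cdca7* still had intervals below 0 in set 1 and above 0 in set 3. For *Gins1* and *Pole* the set 3 value again rests on at most 3 fibroblast-like UMIs. The other flagged members did not keep their sides: *Mcm7* (0.42), *Rfc3* (0.21) and *Prim1* (0.50) had intervals reaching 0 in set 3, *Ezh2* was -0.22 and -0.63 in sets 1 and 3, and *Clspn* was -1.67 and -0.68 in sets 1 and 2.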

How the results depend on the processing

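The log2 ratio of the member sum, -0.67, -0.17 and -0.23 in sets 1, 2 and 3, came to 0.09 and 0.04 with *Nasp* left out in sets 2 and 3, both with intervals reaching 0. It turned above 0 with *Nasp* and *Slbp* left out there (0.33 and 0.48, but -0.34 and 0.14 with the mitotic cluster counted as fibroblast-like as well), as a difference of mean deposited values there (0.97 and 0.91), and as UMIs per cell in all 3 sets (0.75, 1.78 and 1.88). Below 0 but moved were the ratios with the mitotic cluster counted as fibroblast-like (-1.10, -0.59 and -0.39), with each cell classed on its own (-0.88, -0.36 and -0.34), with the first naming rule (-1.32, -0.61 and -0.36) and after thinning (-0.45, -0.33 and -0.30). With cell cycle genes kept and scores regressed out it was -0.99 and -0.26 in sets 1 and 2, at resolution 1.0 -0.78 and per UMI of the rows only -0.62 in set 1, and with at least 500 genes a cell -0.16 in set 3. Clustering without integration gave no value for set 1. Members 2-fold higher numbered 0 of 9, 3 of 20 and 10 of 26 after thinning, 0 of 35, 1 of 33 and 9 of 34 with each cell classed on its own, and 0 of 35, 2 of 34 and 9 of 34 with the mitotic cluster. Members 2-fold lower in set 1 numbered 4 of 9, 18 of 35 and 25 of 35 under these settings, against 10 of 35, and 5 in set 2 with the mitotic cluster. In mitotic cells 22 and 23 members were higher in sets 2 and 3 with the 20 UMI minimum alone. The share of cells with 2 members was 15.3%, 3.63% and 3.13% for 3 members, 36.6%, 19.0% and 17.95% at 1200 UMIs, 94.5%, 37.0% and 37.7% without thinning, and 13.8% in set 2 with at least 500 genes. Except where a setting changes what is counted, the cause was not tested. No paired analysis was possible because there is 1 library in each group. The mitotic cluster, the leaving out of *Slbp* with *Nasp*, UMIs per cell, the first naming rule and the first filter were added after seeing the data. Depth limits the sparse members, whose counts in fibroblast-like cells of sets 2 and 3 fall to 1 UMI.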
